A study of Mus musculus with 12 samples.

Results

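Interferon stimulated genes are the genes that cells switch on when an interferon binds its receptor. The set described here was 40 such genes chosen by name, among them *Isg15*, *Bst2*, the *Ifit*, *Oas*, *Mx* and *Gbp* families and the interferon regulatory factors *Irf1*, *Irf7* and *Irf9*. All 40 were found by symbol among the 55304 genes listed, and all 40 were among the 24736 genes tested, those above a normalised count of 0.1 in at least 3 libraries. No cut on the measured values set the list. The choice was not blind, since the members and the other gene lists were named with earlier results of these data known.

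Interferons are secreted proteins that warn neighbouring cells of infection. Type I and type II interferons bind separate receptors, activate Janus kinases and STAT proteins, and send complexes of these proteins, with or without Irf9, to promoters that carry an interferon stimulated response element (ISRE) or a gamma activated site (GAS). The induced proteins sense foreign nucleic acid, block viral entry or translation, or tag proteins with the ubiquitin-like Isg15. Glucocorticoids are known to dampen interferon and other inflammatory responses in many tissues. Most cells hold a low basal level of these transcripts without infection, and immune and endothelial cells commonly hold more.

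The libraries came from *Pomc*-eGFP male mice on a C57Bl6/J background, 8 weeks old at the start, in which the *Pomc* promoter drives the fluorescent protein used to sort corticotrophs, the pituitary cells that release ACTH. Control mice (group A) drank water only, group B received the synthetic glucocorticoid dexamethasone (DEX, 2.5 µg/ml in drinking water) for 4 weeks, and groups C and D had the same DEX course and then 7 or 28 days without it, called 1 week and 4 weeks here. In the paper's design the courses were staggered, with plain water before DEX in groups B and C, and all mice were collected at a single time point. Age at collection was thus matched, while age during the DEX course differed between groups. Each group had 3 libraries, each from a pool of 2 to 3 pituitaries, with no pool size given per library, so n = 3 pools throughout and p-values measure the spread between pools, not mice. Because the sorting gate rests on *Pomc*-driven fluorescence and *Pomc* itself is a target of DEX, a shift in which cells passed the gate and a change within cells cannot be told apart here.

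Library depth lay between 7719894 and 12848078 reads on genes, and 1 read was worth a normalised count of 0.0787 to 0.127. The corticotroph marker *Pomc* was high in every library, but lowest under DEX, from 4241 to 8521, against 34562 to 74260 in control. The sorted pools also held RNA of other hormone cells, since *Gh*, the growth hormone gene of somatotrophs, ran from 67563 to 265851 and exceeded *Pomc* in every control, DEX and 4 week pool. Markers of other cells moved with the groups. The summed level of 14 endothelial markers was 8.37 to 15.5 in the DEX pools, 13.9 to 92.5 in control, 41.4 to 242 at 1 week and 108 to 205 at 4 weeks. For 16 macrophage and dendritic cell markers the sums were 27.3 to 40.6, 33.2 to 50.1, 57.2 to 97.9 and 46.7 to 109 in the same order. All 14 and all 16 of these genes were detected. The summed level of 14 T, NK, B and plasma cell markers was 6.71 to 13.0 in 11 pools and 156 in 1 week pool 1, where *Igkc*, an antibody light chain gene, reached 43.4. Of these 14, *Igkc* and *Ighm* lay above DEX without overlap at 1 and at 4 weeks, while *Cd3e*, *Cd3d*, *Cd8a*, *Ncr1* and *Ms4a1* had at most 3 reads in every library. In bulk RNA, fewer cells of a type and less RNA per cell cannot be told apart.

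Promoters of 29 of the 40 members, from 250 bases before to 50 bases after the start of transcription, could be read from RefSeq on GRCm38.p6. No window was read for *Mx1*, *Mx2*, *Oas2*, *Ido1*, *Zbp1*, *Ifi27*, *Usp18*, *Rtp4*, *Parp9*, *Parp14* and *Dhx58*. The ISRE, searched on both strands as GAAA, any 2 bases and GAAA again, was present in 15 of the 29 (51.7%) and in 1079 of 27025 genes with a window (3.99%). The GAS, searched as TTCNNNGAA on both strands, was present in 8 of the 29 (27.6%) and in 9.55% of all genes. A core of the glucocorticoid response element, ACANNNTGT, searched likewise, was present in 1 of the 29 (3.45%) and in 7.9% of all genes. Such matches describe letters only and do not show that a factor was bound.

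Promoters of 4 members are printed because the values below turn on them. *Bst2* and *Ifi44* passed the test 4 weeks after withdrawal, and *Isg15* carries the name of the class. *Ifit3* had the largest positive fitted log2 difference between 4 weeks and control, which did not pass the test. Each is written 5′ to 3′ on the strand of the gene, with every base of an ISRE match in capitals on whichever strand it lay.
*Bst2*, chr8:71537423-71537722, minus strand: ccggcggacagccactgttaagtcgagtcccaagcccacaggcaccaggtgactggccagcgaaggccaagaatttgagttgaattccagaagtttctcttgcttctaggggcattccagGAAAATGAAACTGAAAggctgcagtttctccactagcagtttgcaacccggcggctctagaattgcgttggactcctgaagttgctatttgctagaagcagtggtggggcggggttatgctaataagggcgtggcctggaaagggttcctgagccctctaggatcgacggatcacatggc
*Isg15*, chr4:156200769-156201068, minus strand: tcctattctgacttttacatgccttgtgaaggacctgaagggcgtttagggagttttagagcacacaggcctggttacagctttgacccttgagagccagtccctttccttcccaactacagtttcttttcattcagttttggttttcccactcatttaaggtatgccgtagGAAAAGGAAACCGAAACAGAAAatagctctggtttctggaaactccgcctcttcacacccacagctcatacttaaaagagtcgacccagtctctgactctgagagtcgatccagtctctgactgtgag
*Ifit3*, chr19:34583279-34583578, plus strand: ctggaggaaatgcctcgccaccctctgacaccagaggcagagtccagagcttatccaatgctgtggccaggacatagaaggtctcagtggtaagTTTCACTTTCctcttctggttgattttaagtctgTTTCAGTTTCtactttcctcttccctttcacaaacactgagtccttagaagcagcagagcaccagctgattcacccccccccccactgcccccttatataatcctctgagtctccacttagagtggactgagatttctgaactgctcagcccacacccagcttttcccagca
*Ifi44*, chr3:151749861-151750160, minus strand: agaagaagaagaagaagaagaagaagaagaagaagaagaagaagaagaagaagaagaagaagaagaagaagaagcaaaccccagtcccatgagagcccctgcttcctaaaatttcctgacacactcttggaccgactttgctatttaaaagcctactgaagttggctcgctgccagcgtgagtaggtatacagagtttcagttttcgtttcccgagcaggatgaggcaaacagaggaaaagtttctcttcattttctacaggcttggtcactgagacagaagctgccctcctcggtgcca

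In *Isg15* 3 overlapping matches ran together, the first base 78 bases before the start. In *Bst2* 2 overlapping matches began 130 and 124 bases before the start, and in *Ifit3* 2 separate matches on the opposite strand began at 156 and 122. *Ifi44* had no match in this window, so the element as searched here was not shared by both genes that passed the test.

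The comparisons asked whether DEX changed these transcripts and whether they returned to control 1 and 4 weeks later. The clearest difference was between 4 weeks of recovery and the end of DEX, where *Bst2* and *Ifi44* rose. There, 21 of the 40 members had all 3 recovery pools above all 3 DEX pools (52.5% of members, against 9.8% of all genes tested), and 2, *Ido1* and *Irf9*, had all 3 below (5.0% of members, against 9.67%). The members with a higher level included the whole *Ifit* group, *Oas1a*, *Oasl2*, *Gbp2*, *Gbp3*, *Isg15*, *Irf7*, *Ifitm3*, *Rsad2* and *Lgals3bp*. The median log2 fold change was 0.64 over members and 0.00 over all genes.

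**Figure D1:**
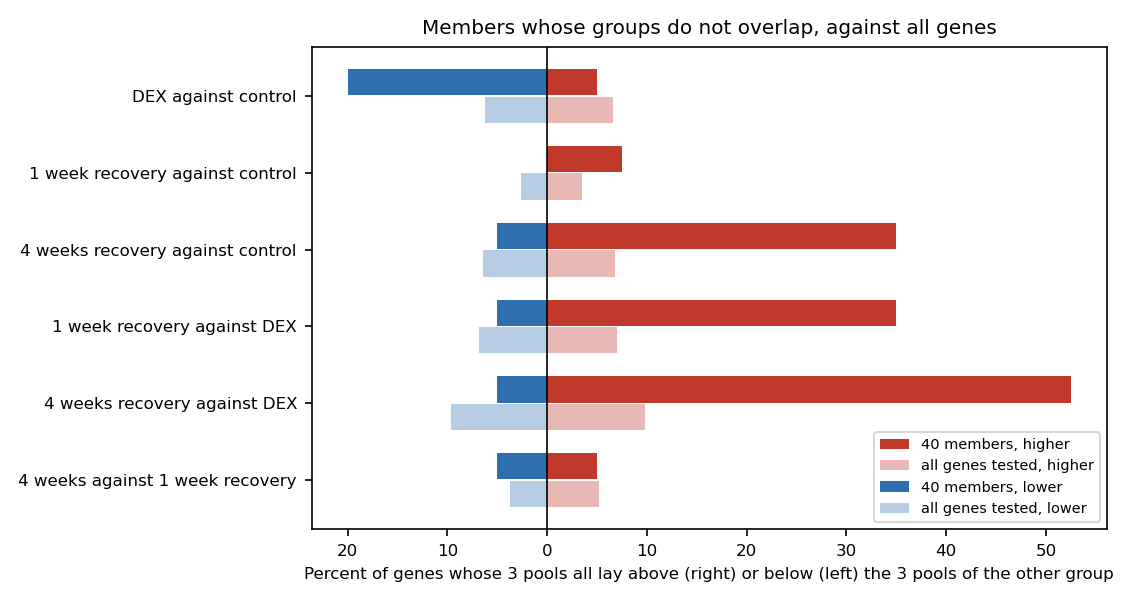
Bars give, for each comparison, the percent of the 40 members (dark) and of all 24736 genes tested (pale) whose 3 pools all lay above (right) or all below (left) the 3 pools of the other group. The longest bar is 4 weeks of recovery against DEX, with 52.5% of members higher against 9.8% of all genes.

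Only a few members passed the test across all genes, limma on log2(normalised count + 0.1) with Benjamini-Hochberg adjustment over 24736 genes and a threshold of 0.05. The F test over the 4 groups called 1 member, *Ido1* (0.315% of all genes were called). At 4 weeks against DEX 2 members were called higher, 5.0% of members, with 0.412% of all genes higher, and none lower, with 0.461% of all genes lower. At an unadjusted p under 0.05 that comparison held 19 members higher and 2 lower, with 5.32% and 4.62% of all genes. On the recovered reads, edgeR's quasi-likelihood test called 2 members higher and 0 lower there, with 0.372% and 0.493% of all genes. Its likelihood ratio test called 9 and 1 (1.31% and 1.4% of all genes), and DESeq2 12 and 1 (1.34% and 1.31%). Array weights, which give discordant libraries less weight in limma, called 15 higher and 2 lower (2.63% and 2.62%). An exact two-sided permutation test gave p = 0.1 for *Bst2* and for *Ifi44*, the smallest that 3 pools against 3 allow.

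At the end of DEX the members lay lower than control in more cases than not. Of the 40, 8 had all 3 DEX pools below all 3 control pools (against 6.23% of all genes): *Bst2*, *Gbp2*, *Ifi27*, *Ifi44*, *Lgals3bp*, *Oas2*, *Oasl2* and *Zbp1*. Only *Ido1* and *Irf9* had all DEX pools above control (5.0%, against 6.61% of all genes). *Ido1* was called higher, 1 of 40 members where 0.109% of all genes were. No member was called lower with limma, where 0.0121% of all genes were. Nor was any called lower with edgeR's quasi-likelihood or likelihood ratio test or DESeq2 (0.0162%, 0.396% and 0.234% of all genes). At an unadjusted p under 0.05 there were 4 lower members, *Bst2*, *Ifi27*, *Lgals3bp* and *Oas2*, 10.0% of members against 3.2% of all genes. The median log2 fold change was −0.36 over members and −0.02 over all genes, and 27 of the 40 lay below 0 (51.8% of all genes did).

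After withdrawal, no member differed from control by the adjusted test at 1 or at 4 weeks, where 0.0% of all genes were called in either direction. At 1 week, edgeR's quasi-likelihood test, its likelihood ratio test and DESeq2 also called no member, where they called 2, 50 and 8 of all genes. No member had an unadjusted p under 0.05 in limma (1.81% of all genes were higher at that level and 1.98% lower). In DESeq2 1 member had, and no share over all genes is given beside it. *Cmpk2*, *Irf7* and *Rsad2* had all 3 pools above control (7.5% of members, against 3.47% of all genes), and none had all 3 below (2.61% of all genes). At 4 weeks, 14 members had all 3 pools above control (against 6.77% of all genes) and *Ifi35* and *Oas2* had all 3 below (5.0%, against 6.42%). At 4 weeks edgeR's quasi-likelihood test, its likelihood ratio test and DESeq2 called no member, where they called 0, 94 and 60 of all genes. Array weights called *Ifitm3* higher (0.517% of all genes). The unadjusted p in limma was under 0.05 for 11 higher members and 1 lower, with 3.43% and 2.92% of all genes.

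The fall of *Ido1* was the call made at 1 week against DEX. There, 14 members had all 3 pools higher (against 6.97% of all genes), and *Ido1* and *Irf9* had all 3 lower (5.0%, against 6.87%). *Ido1* was the 1 member of 40 called lower by limma, which called 0.327% of all genes lower. No member was called higher with limma or edgeR's quasi-likelihood test, where they called 0.105% and 0.21% of all genes, while 13 members had an unadjusted p under 0.05 in limma (5.19% of all genes). DESeq2 called *Bst2* and *Lgals3bp* (1.07% of all genes), edgeR's likelihood ratio test *Ifitm3* and *Gbp3* (1.34%), and array weights *Isg15*, *Gbp3* and *Lgals3bp* (1.2%). Between 4 weeks and 1 week, *Bst2* and *Zbp1* were higher without overlap (5.0%, against 5.19%) and *Ifi35* and *Oas2* lower (5.0%, against 3.72%). No member was called there by limma, edgeR's quasi-likelihood or likelihood ratio test, DESeq2 or array weights. In the same order these called 0, 0, 162, 15 and 8 of all genes. At an unadjusted p under 0.05 in limma 3 members were higher (3.7% of all genes). Comparisons that share the DEX or the control pools are not independent of each other.

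**Figure D2:**
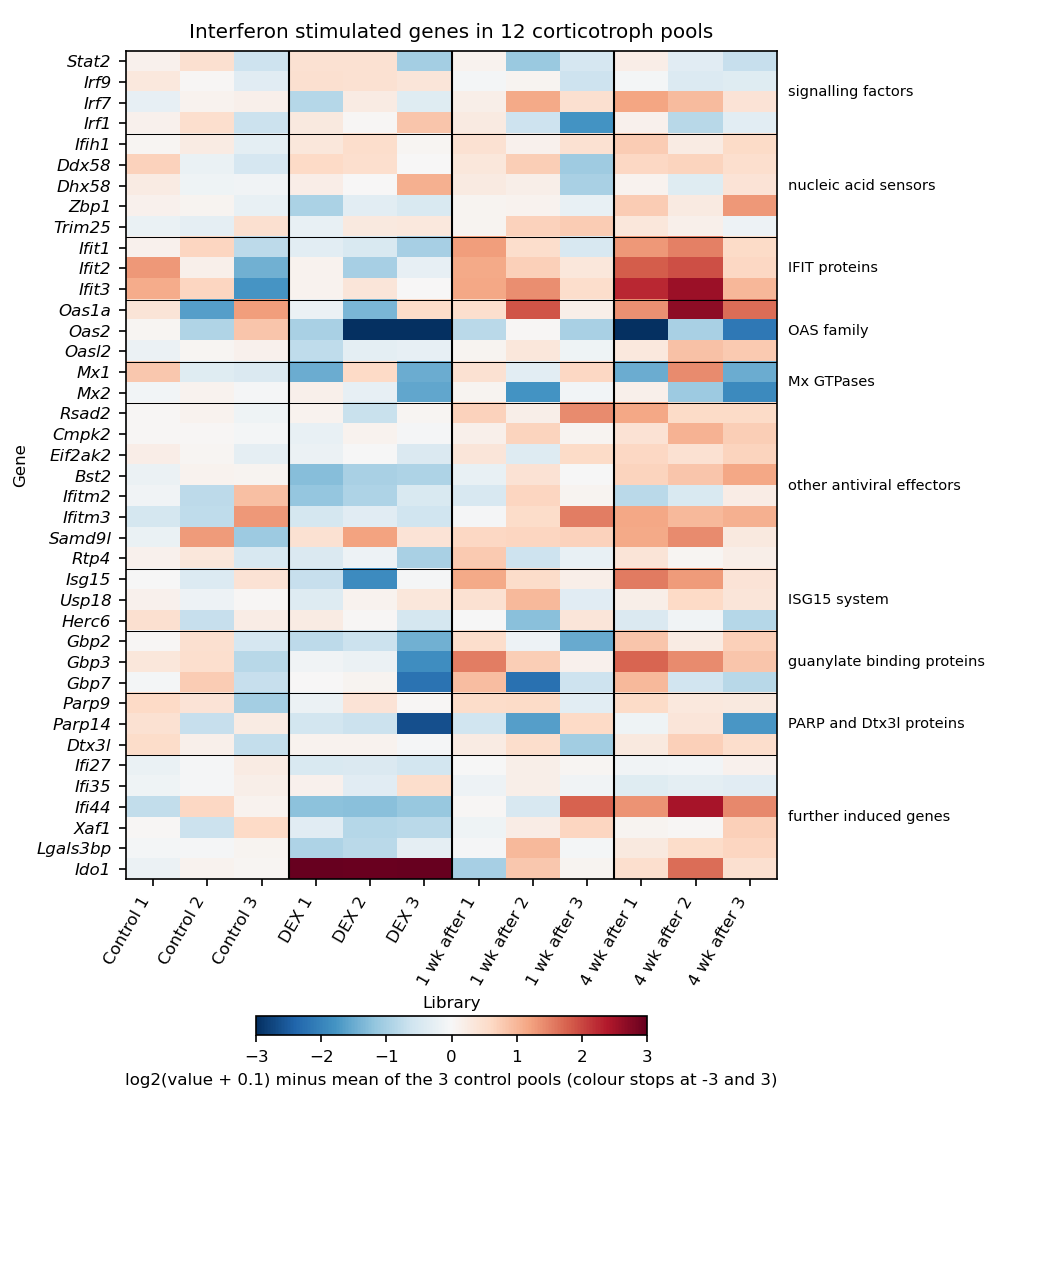
Each row is 1 of the 40 genes, grouped by role, and each column 1 library; colour is log2(normalised count + 0.1) minus the mean of the 3 control pools, blue for lower and red for higher. Red dominates the 4 week columns, with *Ifit3*, *Oas1a* and *Ifi44* deepest, and *Ido1* is red under DEX in all 3 pools.

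The middle of the members within each library moved by group as well. The median difference of the 40 members from the control mean, on the log2 scale, was 0.06, 0.07 and −0.09 in control pools 1 to 3, −0.21, −0.16 and −0.32 in the DEX pools, 0.21, 0.28 and 0.07 at 1 week, and 0.47, 0.50 and 0.45 at 4 weeks. The 4 week pools stood above every other pool and the DEX pools below every other pool. Endothelial and macrophage marker sums moved in the same direction between DEX and 4 weeks, where 8 of 14 endothelial markers passed the limma test and 13 of 14 did not overlap, and 0 of 16 macrophage and dendritic cell markers passed, with 10 at an unadjusted p under 0.05 and 10 without overlap. DESeq2 called 4 of those 16 and edgeR's likelihood ratio test 3. Of 10 pericyte and fibroblast markers, 7 were higher without overlap and *Pdgfrb* and *Col3a1* passed, with sums of 77.7 to 119.9 under DEX and 187 to 295 at 4 weeks. Of 11 other hormone cell markers 6 were higher without overlap and *Tshb* passed, and 5 of 8 stem and folliculostellate and 3 of 5 erythroid markers were higher without overlap. Pool by pool the order was the same in some cases and differed in others. The 1 week pool 2 had the highest macrophage sum, 97.9, and the highest member median, 0.28, of its group. The same held for 4 week pool 2, with 109 and 0.50. The 1 week pool 3 had the highest endothelial sum, 242, and the lowest member median of its group, 0.07. Control pool 1 had an endothelial sum of 13.9, within the DEX range, and a member median of 0.06. The 4 week pool 1 had a macrophage sum of 46.7, within the control range, and a member median of 0.47. The part of these cells in the member values was not tested.

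**Figure D3:**
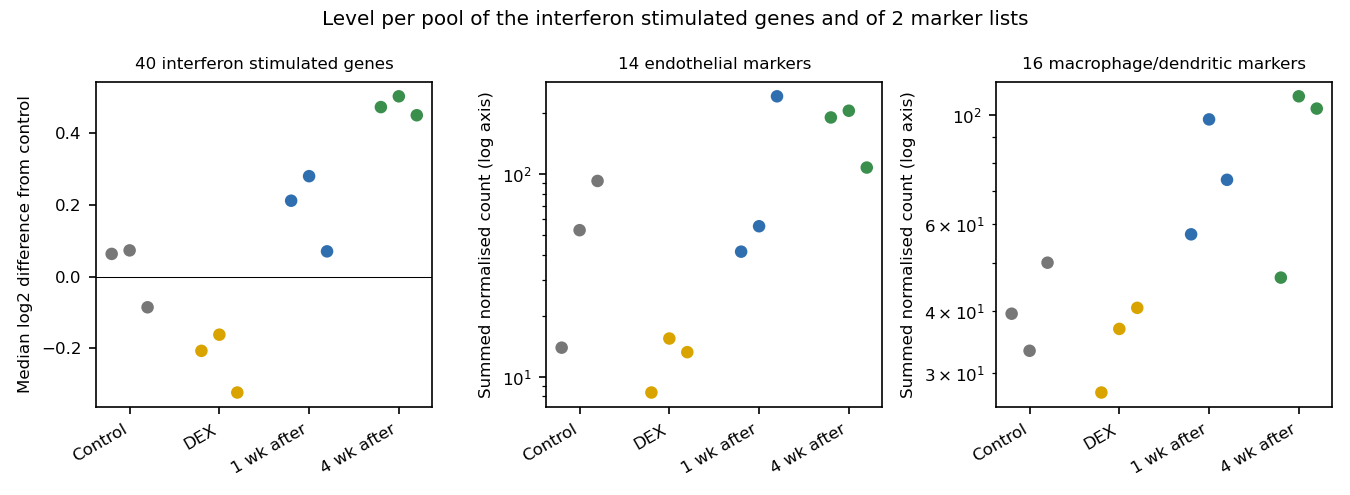
Points are the 12 pools by group: the median log2 difference of the 40 members from the control mean (left) and the summed normalised count of 14 endothelial (middle) and 16 macrophage and dendritic cell markers (right), the last 2 on log axes. The 4 week pools lie at 0.45 to 0.50 on the left, above all other pools.

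*Bst2* encodes tetherin, a membrane protein that holds budding virus particles at the cell surface. Its normalised count was 3.62, 4.48 and 4.35 in control pools 1 to 3, 1.66, 2.04 and 2.13 in the DEX pools, 3.52, 5.61 and 4.11 after 1 week and 6.65, 7.44 and 9.29 after 4 weeks. The DEX pools were the lowest 3 and the 4 week pools the highest 3 of the 12, with control and 1 week between them and overlapping. At 4 weeks it was 3.85-fold higher than under DEX (log2 1.94 ± 0.37 SE, adjusted p = 0.0254, limma). Against control the log2 difference was −1.06 ± 0.37 under DEX (adjusted p = 0.508) and 0.89 ± 0.37 at 4 weeks (adjusted p = 0.754).

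*Ifi44*, a cytoplasmic protein that rises strongly after type I interferon, had normalised counts of 0.629, 1.77 and 1.20 in control pools 1 to 3, 0.414, 0.409 and 0.449 in the DEX pools, 1.14, 0.765 and 4.002 after 1 week and 2.96, 6.57 and 3.16 after 4 weeks. The DEX pools lay within a few hundredths of each other and below all others, while 1 of the 1 week pools reached the 4 week range. With 1 read worth 0.0828, 0.0818 and 0.112 in DEX pools 1 to 3, these DEX values are counts of a few reads. Their closeness to each other and the fold change from them rest on those few reads. At 4 weeks it was 7.73-fold higher than under DEX (log2 2.95 ± 0.65 SE, adjusted p = 0.0459, limma). The log2 difference from control was −1.21 ± 0.65 under DEX (adjusted p = 0.790) and 1.74 ± 0.65 at 4 weeks (adjusted p = 0.694). Leaving out any 1 of the DEX or 4 week pools ended the calls of *Bst2* and *Ifi44* (adjusted p up to 0.133 and 0.247), and leaving out control pool 2 or 3 or 1 week pool 1 ended that of *Ifi44*. The *Ifi44* call was also lost in 6 of 13 other settings, with a pseudocount of 1, no filter, plain CPM, quantile normalisation, the replicate block or only the 2 groups compared in the fit (adjusted p up to 0.0821).

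*Ido1*, which encodes indoleamine 2,3-dioxygenase, the enzyme that starts tryptophan breakdown and a classic target of interferon gamma, moved in the opposite direction. Its normalised count was 0.0787, 0.118 and 0.109 in control pools 1 to 3, 5.55, 1.47 and 3.14 in the DEX pools, 0, 0.255 and 0.111 after 1 week and 0.185, 0.547 and 0.180 after 4 weeks. All 3 DEX pools lay above every other pool, and the control and 1 week pools held at most 3 reads each. It rose under DEX (log2 3.93 ± 0.70 SE, adjusted p = 0.0367, limma), at least 11.1-fold when the control pools are set to 3 reads. It had fallen 1 week after withdrawal (log2 −3.97 ± 0.70, adjusted p = 0.0188), by at least 10.2-fold on the same floor. At 4 weeks the log2 difference from DEX was −3.04 ± 0.70 (adjusted p = 0.0563). *Ido1* is also in the gene list that the study chose on these samples, so that list is not independent evidence for it. Leaving out DEX pool 1 or 3, any control pool or any 4 week pool ended the DEX call (adjusted p up to 0.28), and leaving out DEX pool 1 or 3 ended the 1 week call (up to 0.133).

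**Figure D4:**
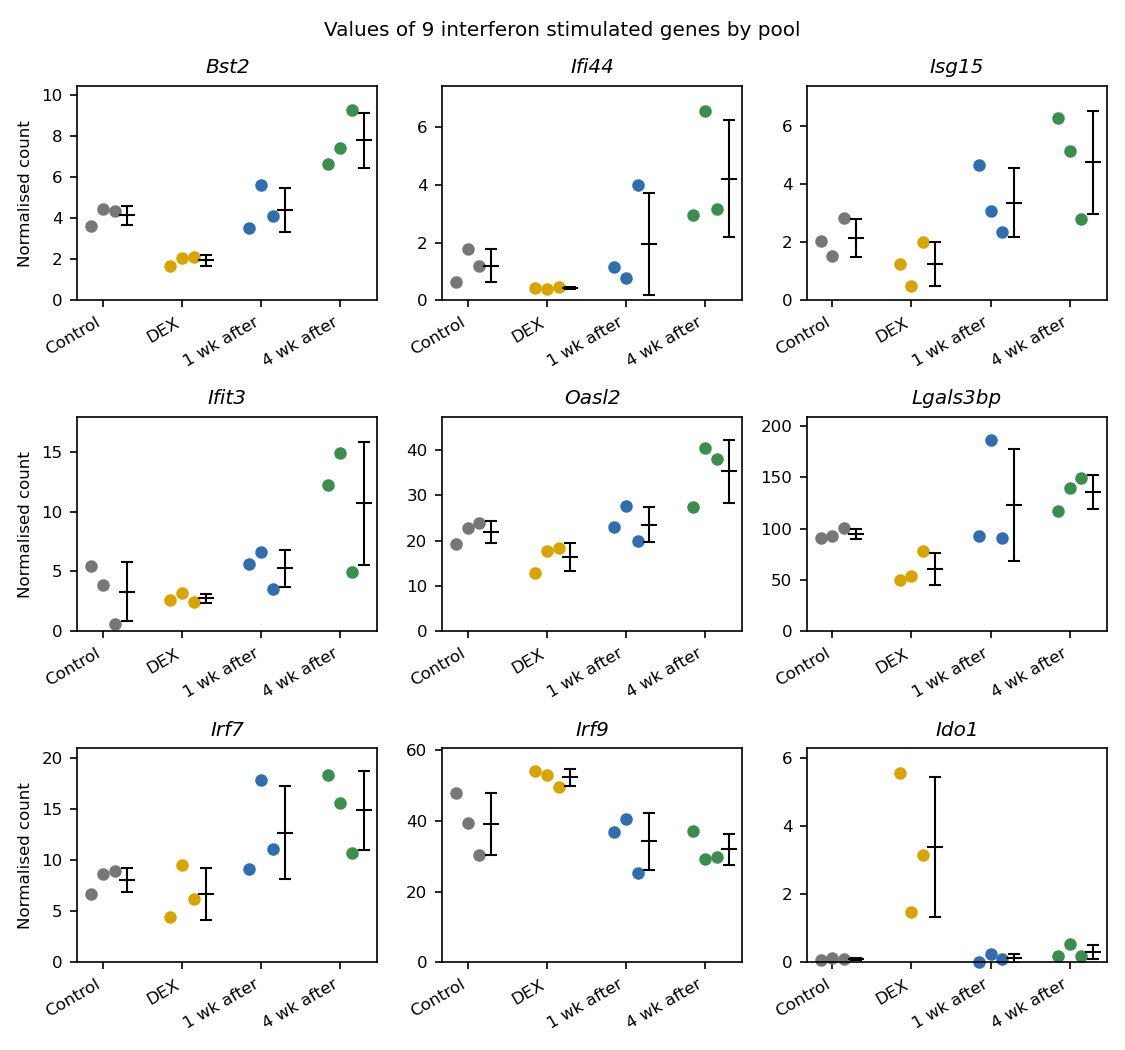
Each panel is 1 gene, with the normalised count of every pool as a point by group and the mean with its SD (n = 3) as a bar to the right. *Bst2* and *Ifi44* show the 3 lowest pools under DEX and high pools after 4 weeks, *Irf9* and *Ido1* show the 3 highest pools under DEX.

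The signalling factors did not move as a unit. *Stat2*, which carries the type I signal, had counts of 26.3, 33.6 and 15.5 in control, 33.1, 32.9 and 11.8 under DEX, 25.9, 10.96 and 16.9 at 1 week and 27.4, 19.05 and 14.8 at 4 weeks. Its 4 groups overlapped. *Irf9*, its DNA-binding partner, had 47.8, 39.3 and 30.2 in control, 54.1, 53.1 and 49.6 under DEX, 36.9, 40.5 and 25.1 at 1 week and 37.05, 29.1 and 29.7 at 4 weeks. The 3 DEX pools were the highest 3 of the 12, and the log2 difference of 4 weeks from DEX was −0.72 ± 0.25 (adjusted p = 0.280, limma). *Irf7*, the amplifier of type I interferon induction, had 6.69, 8.60 and 8.92 in control, 4.39, 9.48 and 6.17 under DEX, 9.13, 17.8 and 11.1 at 1 week and 18.3, 15.5 and 10.7 at 4 weeks. All 1 week and all 4 week pools stood above all control pools, and 4 weeks differed from DEX by a log2 of 1.18 ± 0.36 (adjusted p = 0.179, limma). *Irf1*, the factor most tied to interferon gamma, had 339, 438 and 199.6 in control, 380.3, 319 and 551 under DEX, 375, 202 and 88.9 at 1 week and 338, 175 and 248 at 4 weeks. It was the most abundant member before correction for length, and its groups overlapped in every comparison, with 1 week against DEX at a log2 of −1.10 ± 0.45 (adjusted p = 0.359, limma). Exons of 9 members, *Irf7*, *Irf1*, *Dhx58*, *Eif2ak2*, *Usp18*, *Gbp2*, *Ifi35*, *Dtx3l* and *Parp9*, overlap those of a gene on the other strand. This kit does not mark strand, so reads in the overlap cannot be told apart from those of the partner.

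Among the nucleic acid sensors, *Zbp1*, a sensor of left-handed nucleic acid, had means of 5.12 ± 0.671 in control, 3.45 ± 0.790 under DEX, 5.08 ± 0.644 after 1 week and 9.18 ± 3.32 after 4 weeks (SD, n = 3 pools). It lay below control in all 3 DEX pools and above every DEX and 1 week pool at 4 weeks. *Trim25*, the ubiquitin ligase that activates the RNA sensor encoded by *Ddx58*, had 13.5, 12.8 and 21.7 in control, 13.3, 19.05 and 19.5 under DEX, 16.5, 25.4 and 26.3 at 1 week and 19.6, 17.4 and 13.99 at 4 weeks, the highest mean of this group, and its groups overlapped in all comparisons. The RNA helicases *Ifih1*, *Ddx58* and *Dhx58* had means of 8.59, 13.1 and 10.99 under DEX and 10.0, 15.1 and 8.24 at 4 weeks, with log2 differences of 0.22, 0.22 and −0.37 that did not pass the test. Of the 5 sensors, *Zbp1* alone was above DEX at 4 weeks without overlap. None was called there by limma or either edgeR test, *Zbp1* alone had an unadjusted p under 0.05 in limma, and DESeq2 and array weights called it.

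All 3 *Ifit* genes, whose proteins bind viral RNA and block its translation, stood above DEX at 4 weeks in all 3 pools. *Ifit1* had 5.82, 8.25 and 3.04 in control, 4.22, 3.84 and 2.58 under DEX, 12.7, 7.65 and 3.78 at 1 week and 13.2, 15.3 and 7.85 at 4 weeks. *Ifit3* had 5.43, 3.89 and 0.652 in control, 2.65, 3.19 and 2.47 under DEX, 5.61, 6.63 and 3.56 at 1 week and 12.2, 14.9 and 4.96 at 4 weeks. The log2 difference of 4 weeks from DEX was 1.72 ± 0.48 for *Ifit1* (adjusted p = 0.125, limma), 1.83 ± 0.62 for *Ifit2* (adjusted p = 0.237) and 1.78 ± 0.63 for *Ifit3* (adjusted p = 0.283). None passed the test. *Ifit3* also had the largest positive difference of any member from control at 4 weeks, log2 1.94 ± 0.63 (adjusted p = 0.623, limma), with control pool 3 at 0.652 setting the low end. Its groups overlapped, and leaving out 1 library moved that difference to between 1.06 and 2.50. These genes lie together on chromosome 19, *Ifit2* and *Ifit3* 7111 bases apart, and near-identical stretches could move reads between them.

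The oligoadenylate synthetases, which make the 2′,5′-linked signal for RNA decay, split. *Oasl2*, a relative with ubiquitin-like domains, had 19.2, 22.7 and 23.9 in control, 12.8, 17.7 and 18.4 under DEX, 23.00, 27.5 and 19.9 at 1 week and 27.3, 40.5 and 37.99 at 4 weeks. Every DEX pool was below every other pool and the 4 week pools were all above DEX and control, with a log2 difference from DEX of 1.11 ± 0.26 (adjusted p = 0.0633, limma). *Oas1a* had means of 0.519 ± 0.367 under DEX and 2.67 ± 1.40 at 4 weeks (SD, n = 3 pools), without overlap. *Oas2* had 0.787, 0.353 and 1.41 in control, 0.331, 0 and 0 under DEX, 0.380, 0.765 and 0.334 at 1 week and 0, 0.328 and 0.0902 at 4 weeks. Like *Oasl2* it lay below control under DEX without overlap. It went the other way at 4 weeks, where all its pools lay below control and below 1 week without overlap and held at most 3 reads. The log2 difference of 4 weeks from 1 week was −1.49 for *Oas2* and 0.58 for *Oasl2*, and neither passed the test. Against control the 4 week level of *Oas2* was at least 2.91-fold lower when the 4 week pools are set to the 3-read floor. These are counts of a few reads, and intervals from such counts would cover counting error only, since no molecular identifiers were used.

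The *Mx* genes, whose GTPases trap viral nucleoprotein, were not separated at 4 weeks from DEX. Inbred strains such as C57BL/6 carry a defective *Mx1*. *Mx1* had a mean of at most 0.249 in every group and no pool above 0.657. *Mx2* had 6.06, 6.95 and 6.31 in control, 7.12, 5.40 and 2.13 under DEX, 6.84, 1.78 and 6.11 at 1 week and 7.11, 2.96 and 1.62 at 4 weeks, with overlapping groups throughout and a log2 difference of 4 weeks from DEX of −0.41 ± 0.61 (adjusted p = 0.921, limma).

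Of 8 other antiviral effectors, *Bst2*, *Cmpk2*, *Eif2ak2*, *Ifitm3*, *Rsad2* and *Rtp4* were above DEX at 4 weeks without overlap. *Rsad2*, viperin, which makes a chain-terminating nucleotide, had 5.27, 5.54 and 4.68 in control, 5.55, 3.19 and 5.38 under DEX, 8.36, 5.86 and 13.9 at 1 week and 11.5, 7.66 and 7.76 at 4 weeks. All 1 week and 4 week pools exceeded all control pools. Its neighbour *Cmpk2*, the kinase that supplies viperin's substrate and lies 12751 bases away on chromosome 12 in the opposite orientation, had 18.6, 18.7 and 17.5 in control, 15.6, 19.6 and 17.8 under DEX, 20.2, 29.1 and 19.2 at 1 week and 24.9, 37.4 and 30.5 at 4 weeks, also above control in all 6 recovery pools. The log2 difference of 4 weeks from DEX was 0.93 ± 0.38 for *Rsad2* (adjusted p = 0.402, limma) and 0.79 ± 0.26 for *Cmpk2* (adjusted p = 0.212). *Ifitm3*, a membrane protein that stops viral fusion, had 26.4, 22.4 and 94.1 in control, 26.3, 29.9 and 25.2 under DEX, 37.2, 55.6 and 111 at 1 week and 85.7, 75.3 and 80.7 at 4 weeks. Control pool 3 and 1 week pool 3 exceeded every 4 week pool, and the 3 DEX pools lay below all 6 recovery pools, with a log2 difference at 4 weeks of 1.57 ± 0.45 (adjusted p = 0.142, limma). *Eif2ak2*, the RNA-activated kinase that stops translation, had means of 10.9 ± 1.66 under DEX and 18.8 ± 1.49 at 4 weeks (SD, n = 3 pools). *Ifitm2*, *Samd9l* and *Rtp4* had log2 differences of 0.50, 0.27 and 0.73 between 4 weeks and DEX, and none passed the test.

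In the Isg15 system, *Isg15*, the ubiquitin-like tag, had 2.05, 1.53 and 2.83 in control, 1.24, 0.491 and 2.02 under DEX, 4.66, 3.06 and 2.33 at 1 week and 6.28, 5.14 and 2.80 at 4 weeks. The 1 week and 4 week pools all exceeded the DEX pools, and the 4 week difference was a log2 of 1.95 ± 0.55 (adjusted p = 0.133, limma). *Usp18*, the protease that removes the tag and damps the receptor, had 10.5, 8.60 and 9.89 in control, 7.37, 10.3 and 12.1 under DEX, 13.3, 18.99 and 7.56 at 1 week and 10.8, 14.6 and 12.4 at 4 weeks. Its 4 week pools all lay above control but overlapped DEX. *Herc6*, the ligase that attaches the tag in mice, had 10.4, 4.59 and 8.70 in control, 8.86, 7.60 and 5.16 under DEX, 7.41, 3.06 and 9.56 at 1 week and 5.54, 6.90 and 4.06 at 4 weeks, with overlap between DEX and 4 weeks.

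The guanylate binding proteins attack membranes of intracellular pathogens. *Gbp2* had means of 10.4 ± 3.47 in control, 5.23 ± 1.46 under DEX, 8.91 ± 5.45 after 1 week and 15.4 ± 3.04 after 4 weeks and *Gbp3* of 8.28 ± 3.54 in control, 5.31 ± 2.85 under DEX, 14.6 ± 7.25 after 1 week and 20.1 ± 6.23 after 4 weeks (SD, n = 3 pools). The 4 week pools of both lay above all DEX pools, by a log2 of 1.56 ± 0.46 for *Gbp2* (adjusted p = 0.150, limma) and 2.05 ± 0.51 for *Gbp3* (adjusted p = 0.0793). *Gbp7*, the most abundant of the 3, had 33.8, 59.5 and 21.9 in control, 35.9, 37.3 and 7.51 under DEX, 67.6, 7.39 and 22.9 at 1 week and 68.9, 23.5 and 19.7 at 4 weeks, with wide spread in every group and a log2 difference of 0.55 ± 0.73 (adjusted p = 0.905, limma). *Dtx3l*, a ubiquitin ligase that works with Parp9, had 27.6, 21.1 and 11.5 in control, 20.2, 20.3 and 18.5 under DEX, 22.2, 27.02 and 9.12 at 1 week and 23.2, 31.2 and 27.4 at 4 weeks. Its 4 week pools were above DEX without overlap but by a log2 of only 0.46 ± 0.38. The divergent genes *Dtx3l* and *Parp9* start 681 bases apart and overlap, so reads within the overlap cannot be assigned to one or the other. The groups of *Parp9* and *Parp14* overlapped in every comparison.

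Of the further induced genes, *Ifi27*, a mitochondrial membrane protein, had 117, 131 and 161 in control, 98.6, 100.7 and 92.3 under DEX, 134, 153 and 142 at 1 week and 126, 127 and 147 at 4 weeks. Its DEX pools were the lowest 3, and DEX differed from control by a log2 of −0.48 ± 0.21 (adjusted p = 0.702, limma). *Lgals3bp*, a secreted glycoprotein that binds galectin-3, had means of 94.9 ± 4.95 in control, 60.7 ± 15.4 under DEX, 123 ± 54.7 after 1 week and 135 ± 16.6 after 4 weeks (SD, n = 3 pools). The DEX pools were below all others, and the log2 difference of 4 weeks from DEX was 1.18 ± 0.28 (adjusted p = 0.0685, limma). *Xaf1*, an antagonist of the apoptosis inhibitor XIAP, was above DEX in all recovery pools, and *Ifi35* lay at 34.2 ± 0.861 at 4 weeks (SD, n = 3 pools), below control and 1 week.

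Levels between genes were compared per kilobase of exon, on the mean of all 12 libraries. *Ifi27* (86.8 normalised counts per kb), *Ifitm3* (82.3) and *Irf1* (76.6) stood well above *Lgals3bp* (36.4), *Ifitm2* (31.8) and *Ifi35* (24.3). The other 34 lay between 0.052 for *Mx1* and 7.31 for *Irf9*, with *Bst2* at 5.07, *Isg15* at 3.80 and *Ifi44* at 0.319.

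Of 21 interferon genes none passed the filter, and the most reads in any library were 3, for *Ifna13*. Of 18 interferon receptor and JAK-STAT genes tested, 0 were called by limma in any contrast, with *Socs3*, a feedback inhibitor, at means of 467, 704, 397 and 497 and *Stat3* at 412, 337, 285 and 259.8 in control, DEX, 1 week and 4 weeks. For the comparison of 4 weeks with DEX, 1 of them was higher and 1 lower at an unadjusted p under 0.05, DESeq2 called *Il10rb* higher and *Ptpn1* lower, and edgeR's quasi-likelihood test called 0. Of 16 sensing adaptors and kinases tested, 0 were called by limma or either edgeR test in that comparison, 0 by DESeq2, and 0 had an unadjusted p under 0.05 in limma. *Irf2bp1* and *Myd88* were the most abundant of these, with DEX means of 78.0 and 57.9 and 4 week means of 69.3 and 42.9. Between 4 weeks and DEX 3 of the 18 receptor and JAK-STAT genes were higher without overlap and 4 lower, and 1 of the 16 adaptors higher and 1 lower, against 9.8% and 9.67% of all genes.

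A list of 70 further interferon stimulated genes, of which 68 were tested, was set beside the members. At 4 weeks 29 of 68 were above DEX without overlap and 3 below (9.8% and 9.67% of all genes), and the median log2 difference was 0.90. By limma, which called 0.412% of all genes higher, 4 rose: *Iigp1*, an immunity-related GTPase (log2 3.93 ± 0.76 SE, adjusted p = 0.025), *Cxcl10*, a T cell attracting chemokine (3.14 ± 0.58, adjusted p = 0.023), *Lgals9*, galectin-9 (1.51 ± 0.33, adjusted p = 0.045) and *Psmb8*, an immunoproteasome subunit (1.69 ± 0.26, adjusted p = 0.008). *Psmb8* was also called by the F test, and at 1 week against DEX (adjusted p = 0.032). Its counts were 29.98, 27.3 and 34.4 in control, 11.6, 14.1 and 15.03 under DEX, 32.0, 41.2 and 31.6 at 1 week and 32.5, 43.2 and 59.7 at 4 weeks. All 3 DEX pools lay below every other pool. Under DEX 14 of the 68 were below control without overlap and 1 above (6.23% and 6.61% of all genes). None was called by limma or edgeR's quasi-likelihood test, 9 were lower at an unadjusted p under 0.05 in limma (3.2% of all genes), and 3 were called lower by DESeq2 and 3 by edgeR's likelihood ratio test (0.234% and 0.396% of all genes). The part of endothelial, macrophage and other marked cells in these values was not tested.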

How the data were processed

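RNA of sorted *Pomc*-eGFP cells was measured in 12 libraries, 3 pools per group, with groups taken from the labels. Per the submitters' processing notes and the methods, the authors trimmed reads with Trim Galore 0.6.5, aligned them to GRCm38 with STAR 2.7.1a, and counted those of mapping quality 20 or more on genes with featureCounts 2.0.0. What the authors deposited is a signal, CPM on TMM-scaled library sizes (edgeR), here called the normalised count. All columns belonged to listed samples. Whole reads were recovered for 100.0% of the 271881 values above 0, within 1e-06 of a whole number. Libraries held 7719894 to 12848078 reads. No 2 libraries were identical. Counting used a stranded setting, while the kit does not mark strand.

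The members and lists were chosen with earlier results of these data known. The 24736 genes that exceeded 0.1 in 3 or more libraries entered, as log2(value + 0.1), limma 3.58.1 (R 4.3.3) with all 12 libraries, moderated contrasts and Benjamini-Hochberg adjustment, called under 0.05. Fold changes on this scale understate low genes. The script was tested on simulated data. Alternatives were other pseudocounts, filters and scalings, array weights, a replicate block, leaving out each library, edgeR 4.0.16 and DESeq2 1.42.0 on recovered reads. Groups do not overlap where all 3 pools of one lie above all 3 of the other. Values in every library are given for members that passed a test, the 3 with the smallest unadjusted p in each contrast against control, the most abundant of each role, and 8 fixed names. Gene positions are from GENCODE M21 (GRCm38) and promoter windows from RefSeq. The authors' own comparisons were not used.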

Additional observations from a re-analysis of the deposited data

Results flagged for a closer look

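For 3 members the effects of 2 groups against control differed by the limma contrast between those groups. The effect on *Ido1* at 1 week was lower than that under DEX by a log2 of −3.97 (n = 3 pools a group, lower in 3 of 3 pools). The effect on *Bst2* at 4 weeks was higher than that under DEX by a log2 of 1.94, in 3 of 3 pools. That on *Ifi44* at 4 weeks was higher by a log2 of 2.95, in 3 of 3 pools. The *Ido1* difference passed in 10 of 12 fits that left out 1 library, that of *Bst2* in 6 and that of *Ifi44* in 3.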

How the results depend on the processing

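The number of members called depended on the tool. For the F test it was 1 with limma, 7 with DESeq2 (2.97% of all genes), 6 with the likelihood ratio test of edgeR (4.23%), 11 with array weights (4.32%), and 0 with a filter at 1 or no filter on low values. For 4 weeks against DEX it was 13 with DESeq2, 17 with array weights, 10 with the likelihood ratio test, and 1 with no filter or with only the 2 groups compared in the fit. In the same order, 655, 1300, 672, 155 and 21 of all genes were called. For 1 week against DEX it was 3 with DESeq2, 4 with array weights, 3 with the likelihood ratio test and 0 with only the 2 groups (573, 566, 712 and 0 of all genes). For DEX against control it was 0 with a filter at 1, no filter, or only the 2 groups (24, 31 and 1 of all genes). Array weights called 1 member at 4 weeks against control. The filter at 1 tested 16876 genes and no filter 32600. The cause of these changes was not tested.

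The replicate numbers were not taken as pairing over the 4 groups, where 7 of 18 same-number pairs correlated above 0.1 (range −0.294 to 0.397, other numbers −0.273 to 0.382) and 8 of 12 libraries were closest to their own number. This is a hint from the data, not the design. For control and 1 week all 3 same-number pairs were above 0.1 (0.202, 0.136 and 0.397), and the replicate block left 0 members and 0 of all genes called there. With the replicate block 0 members were called for DEX against control and 4 for 4 weeks against DEX (*Ifit1*, *Oasl2*, *Bst2* and *Gbp3*), so *Ido1* under DEX and *Ifi44* at 4 weeks were no longer called. In these 2 comparisons the block called 34 and 241 of all genes.

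Plain CPM without TMM moved the median of all genes by −0.32 to 0.12 between comparisons (log2), and the member median to −0.23 for DEX, −0.087 for 1 week and 0.38 for 4 weeks against control, 0.17 for 1 week and 0.35 for 4 weeks against DEX, and 0.36 for 4 weeks against 1 week. The 1 week median against control thus changed sign, from 0.14, while the median of all genes moved by −0.19. Members without overlap became 5 lower for DEX against control, 0 higher and 1 lower for 1 week and 9 higher for 4 weeks against control, 4 higher for 1 week against DEX, 5 lower for 4 weeks against DEX, and 5 higher and 1 lower for 4 weeks against 1 week. Quantile normalisation gave 1 higher for DEX against control and 0 higher and 1 lower for 4 weeks against 1 week. The filter at 1 left 1 lower for 4 weeks against control and 1 for 4 weeks against 1 week. No share over all genes under the same scaling or filter stands beside these counts, so they cannot be set against a background.

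The median for 4 weeks against DEX was 0.73 with DESeq2, 0.52 with array weights, 0.72 with either edgeR test, 0.75 with the filter at 1 and 0.54 with a pseudocount of 1. That pseudocount gave −0.24 for DEX against control and 0.44 for 1 week against DEX. For 4 weeks against 1 week the median was 0.19 with DESeq2 and with either edgeR test, and 0.12 with array weights.

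Leaving out 1 library gave 0 to 7 members called for 4 weeks against DEX, 0 without any 1 of the DEX or 4 week pools and 7 without 1 week pool 3. Calls over all genes moved too, from 216 in the full fit to 402 without 1 week pool 3. They were 19, 138 and 29 without DEX pools 1 to 3, and 50, 21 and 40 without 4 week pools 1 to 3. For the F test and for DEX against control it gave 0 to 1, for 1 week against DEX 0 to 1 (0 without DEX pool 1 or 3). Over all genes 1 week against DEX held 107 calls in the full fit, 27 without DEX pool 1 and 7 without DEX pool 3. Medians ranged from −0.36 to −0.21 for DEX, 0.06 to 0.22 for 1 week and 0.38 to 0.60 for 4 weeks against control, 0.49 to 0.63 for 1 week and 0.51 to 0.86 for 4 weeks against DEX, and 0.17 to 0.41 for 4 weeks against 1 week. Members without overlap ranged from 2 to 4 higher and 8 to 16 lower for DEX, 4 to 7 higher and 0 to 1 lower for 1 week, and 14 to 18 higher and 2 to 4 lower for 4 weeks against control. They ranged from 14 to 20 higher and 2 to 3 lower for 1 week and 22 to 23 higher and 2 to 4 lower for 4 weeks against DEX, and 5 to 9 higher and 2 to 3 lower for 4 weeks against 1 week. With 2 pools set against 3, a count without overlap can only stay or rise. These ranges therefore do not test the counts from 3 pools against 3, and no share over all genes is given for that rule. No called value changed sign. Of the 40 members, 3 had a mean normalised count below 1 and 25 one of 1 to 20. Pools of a group differed by more than counting error, with a mean chi-square per gene of 15.9 to 144.6.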
